A study of Mus musculus with 9 samples.

Results

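The 7SK small nuclear ribonucleoprotein and the kinase that it holds were described in mouse myoblasts, through 9 genes chosen by symbol from a table of 55536 genes. They are Rn7sk, which encodes 7SK RNA, its protein partners Hexim1, Larp7 and Mepce, the P-TEFb genes Cdk9, Ccnt1 and Ccnt2, and, for comparison, Rmrp and Rpph1, a pair of other RNAs made by RNA polymerase III. The 9 symbols matched 10 gene IDs, because Rmrp has 2. Counts were present for 7 of the 9 genes, and Rmrp and Rpph1 were listed at 0 in all libraries. Rn7sk was chosen for its share of the counts in these same libraries, so its values are given as a description with no test.

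P-TEFb is the pair of Cdk9 with cyclin T1 or cyclin T2, and it phosphorylates RNA polymerase II and the factors that hold it paused, so that transcription can go on. 7SK RNA keeps a large part of P-TEFb inactive: MEPCE caps and binds the RNA at its start, LARP7 binds its end and protects it from decay, and HEXIM1, once bound to the RNA, blocks the kinase. In heart muscle, release of P-TEFb from 7SK RNA is known to go with growth of the cells.

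RNA was sequenced from primary myoblasts, the precursor cells of skeletal muscle, that carry floxed Uqcrfs1, the gene of the Rieske iron-sulfur protein of mitochondrial complex III. KO oxybutynin cells received an adenovirus for Cre and 7.5 µM oxybutynin, an antagonist of muscarinic receptors, for 5 days. KO vehicle cells received the Cre virus and DMSO, and floxed vehicle cells received an adenovirus for green fluorescent protein and DMSO. In all groups cells were seeded 72 h after virus, and treatment with drug or DMSO began 24 h after seeding and lasted 5 days. There were 3 libraries in each group. All groups carried the floxed allele and a virus, the knockout always went with the Cre virus, and no floxed group with oxybutynin was analysed here. The labels do not say that libraries of a group came from separate cultures or animals. The p-values therefore reflect only how far these libraries varied, and that variation may be technical.

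Library totals ran from 19604971 to 26226949 counts. Uqcrfs1 averaged 2.56 ± 0.44 CPM (read counts scaled to library size, with TMM factors) in KO oxybutynin, 2.45 ± 0.36 CPM in KO vehicle and 79.5 ± 3.7 CPM in floxed vehicle cells (SD, n = 3 each). The myoblast genes Myod1 (1525, 1301 and 1117 CPM in KO oxybutynin, KO vehicle and floxed vehicle cells) and Pax7 (419.8, 384.9 and 320.8 CPM in the same order) were abundant. Of the 8 myoblast markers, 6 were called in KO vehicle over floxed vehicle, in both directions: Des (0.43), Vcam1 (0.33) and Pax7 (0.26) were higher, and Cdh15 (-0.88, edgeR adjusted p = 9.23e-07), Myog (-0.55, edgeR adjusted p = 2.27e-05) and Myf5 (-0.39) were lower. Myod1 (0.22, edgeR adjusted p = 0.076) and Itga7 (-0.17, edgeR adjusted p = 0.115) were not called. The 6 of 8 called stand beside 63.3% of all tested genes called in this comparison. After removal of the trend with GC content and length described further on, Cdh15 was at -1.40, Myog at -1.07, Itga7 at -0.48, Myod1 at -0.36 and Vcam1 at 1.32, all called, and Des, Pax7 and Myf5 were not called. In that setting 65.0% of the 12976 protein-coding genes tested were called. Of 12 markers of blood, endothelial, glial, fat and stromal cells, Ptprc, Cdh5, Adipoq and Plin1 were among those that stayed under the filter on low counts. The 12 summed to 23.6 to 24.7 CPM in KO oxybutynin, 23.2 to 24.5 CPM in KO vehicle and 14.5 to 15.6 CPM in floxed vehicle libraries. Of the 7 tested, Cd68, a lysosomal gene of macrophages, rose in KO vehicle over floxed vehicle by 1.19 ± 0.13 on the log2 scale (SE, edgeR adjusted p = 4.16e-07) and the stromal marker Ly6a by 1.05 ± 0.21 (edgeR adjusted p = 0.000307). The part of the markers in the results was not tested. In bulk RNA, fewer cells of a type and less RNA per cell cannot be told apart. KO vehicle replicate 2 had the lowest Rn7sk of the knockout libraries and KO vehicle replicate 3 lay near the KO oxybutynin libraries for several members, so results that rest on either are given with and without it.

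The RNA at the centre of the group is printed first, because its level rests on reads that other loci could share. Rn7sk (ENSMUSG00000065037) lies at chr9:78175303-78175633 on the minus strand of GRCm38 and its annotated transcript has 331 bases. The first 300 bases are shown, and the 3 GATC motifs in capitals are the GAUC elements near the start of the RNA, of which those of the human RNA are known as the landing place of HEXIM1. Of 200 other annotated genes with a BLAST match to it, none matched at 90% identity over 80% of its length. Gm23037 fell just short, at 89.2% identity over bases 1 to 331, with 76 counts over all libraries. Gm24447 (chr15:93234363-93234700, plus strand, 338 bases), named after its values were seen, shares its first 241 bases with Rn7sk before the first difference and is shown beside it. Both sequences are from the GENCODE M21 transcripts.
Rn7sk: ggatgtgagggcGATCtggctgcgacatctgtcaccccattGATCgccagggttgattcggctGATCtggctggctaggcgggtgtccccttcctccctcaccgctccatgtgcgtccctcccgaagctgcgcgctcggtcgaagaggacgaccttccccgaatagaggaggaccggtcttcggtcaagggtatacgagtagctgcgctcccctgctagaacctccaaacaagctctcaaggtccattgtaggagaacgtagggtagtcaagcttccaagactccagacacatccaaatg
Gm24447: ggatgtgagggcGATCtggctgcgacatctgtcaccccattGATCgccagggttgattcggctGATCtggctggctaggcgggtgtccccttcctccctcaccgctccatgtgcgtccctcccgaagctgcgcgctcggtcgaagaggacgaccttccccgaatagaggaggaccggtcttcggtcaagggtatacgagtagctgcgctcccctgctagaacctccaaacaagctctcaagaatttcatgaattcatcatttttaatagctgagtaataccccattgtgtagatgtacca

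Gm24447 had 212, 151 and 153 counts in KO oxybutynin, 100, 48 and 127 in KO vehicle and 66, 92 and 76 in floxed vehicle libraries. The 42 annotated misc_RNA copies with any count summed to between 0.0245% and 0.0529% of the Rn7sk count in each library. The counts assigned to copies were thus a very small fraction of those assigned to Rn7sk. How reads with several matches were counted is unstated in the sources at hand, so reads of copies assigned to Rn7sk, and the reverse, cannot be told apart.

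Rn7sk was higher in both knockout groups than in floxed cells, and by far the most abundant member. It had 42612, 34531 and 33577 CPM in KO oxybutynin libraries, 33938, 21866 and 36321 CPM in KO vehicle libraries and 19307, 20684 and 21204 CPM in floxed vehicle libraries. Every knockout library lay above every floxed library, KO vehicle replicate 2 only just, and the 2 knockout groups overlapped. As a share of all counts, it took 3.59 ± 0.34% in KO oxybutynin, 3.13 ± 0.67% in KO vehicle and 2.04 ± 0.09% in floxed vehicle libraries (SD, n = 3 each). The log2 difference was 0.59 for KO vehicle over floxed vehicle, a 1.51-fold higher level, and 0.86 for KO oxybutynin over floxed vehicle, a 1.81-fold higher level. For KO oxybutynin over KO vehicle it was 0.27, but 0.07 without KO vehicle replicate 2 and 0.15 without KO oxybutynin replicate 1. The 3 comparisons share their groups and are not independent.

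Rn7sk was also set against other small RNAs within each library, which removes the effect of scaling. Per count of the 2943 annotated snRNA, snoRNA and scaRNA genes, of which 717 had counts, Rn7sk had 30.7, 28.9 and 28.5 counts in KO oxybutynin, 37.1, 40.5 and 37.9 in KO vehicle and 23.0, 27.0 and 28.2 in floxed vehicle libraries. On this scale KO vehicle replicate 2 was the highest library, the KO vehicle libraries lay above all others, and the KO oxybutynin libraries lay just above the floxed ones. The small RNAs themselves summed to 1387, 1194 and 1177 CPM in KO oxybutynin, 915, 539 and 958 CPM in KO vehicle and 839, 767 and 751 CPM in floxed vehicle libraries. Gm26917, a lincRNA with the highest count of all genes, took 11.6 ± 1.6% of counts in KO oxybutynin, 9.43 ± 1.97% in KO vehicle and 7.70 ± 0.30% in floxed vehicle libraries. Mitochondrial transcripts took 1.78 ± 0.29%, 2.23 ± 0.42% and 3.11 ± 0.03% of counts in the same order (SD, n = 3 each). These measures were chosen after their values were seen, and their part in the level of Rn7sk was not tested.

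**Figure D1:**
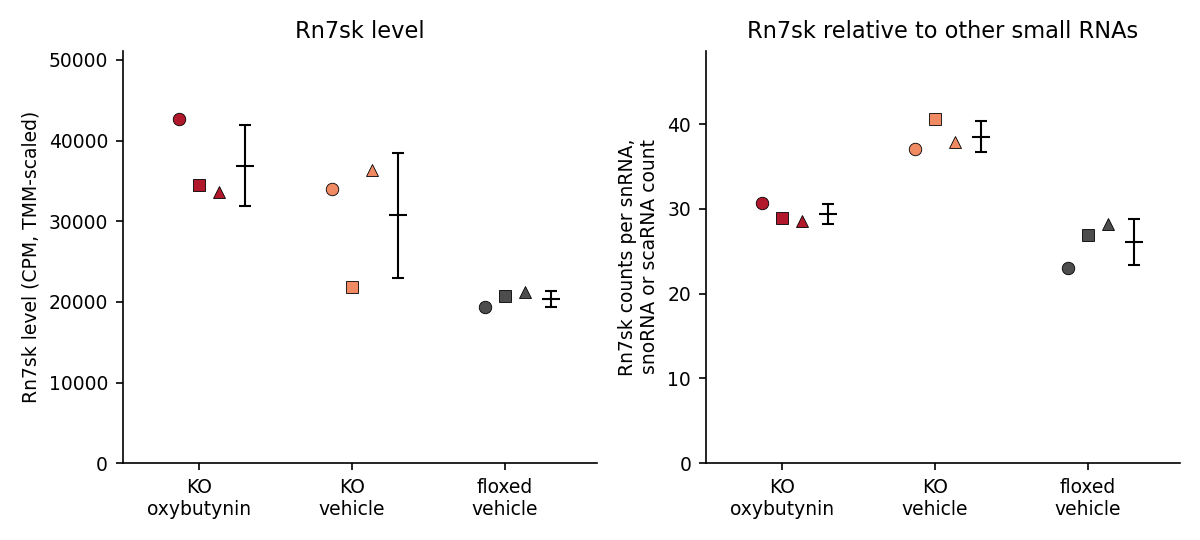
Rn7sk in each library, as CPM after TMM scaling (left) and as counts per count of snRNA, snoRNA and scaRNA genes (right); symbols are replicates 1 (circle), 2 (square) and 3 (triangle), and bars give the mean ± SD of 3 libraries. KO vehicle replicate 2 is the lowest knockout library at 21866 CPM on the left and the highest library at 40.5 on the right.

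Rmrp, the RNA of RNase MRP, which processes ribosomal RNA, and Rpph1, the RNA of RNase P, which trims transfer RNAs, are usually abundant, yet both were listed at 0 in all 9 libraries. The Rmrp IDs (ENSMUSG00000088088, chr4:43492788-43493058, and ENSMUSG00000115420, chr4:43492783-43493063, both minus strand) overlap each other by 271 bases. They also overlap Ccdc107 on the opposite strand, by 159 and 164 bases, and Ccdc107 had 3842 counts over all libraries. Rpph1 (ENSMUSG00000092837, chr14:50807449-50807767, minus strand) overlaps Ccnb1ip1 by 284 bases on the same strand, and Ccnb1ip1 was also listed at 0. Whether reads in overlaps were dropped was not tested, and the zeros carry no level for either RNA.

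Among the protein-coding members, KO vehicle cells differed from floxed vehicle cells in 5 of 6 tested genes. Larp7, Ccnt2, Hexim1 and Ccnt1 were lower, Cdk9 was higher, and Mepce did not pass the test. A gene was called at an adjusted p under 0.05 (edgeR's quasi-likelihood test, Benjamini-Hochberg over 15720 genes). In this comparison 63.3% of all tested genes were called, 29.9% higher and 33.4% lower, so 5 of 6 is near the background. The groups did not overlap for 5 of 6 members, against 66.7% of all tested genes. The median log2 fold change of the 6 members was -0.54, against -0.01 over all tested genes.

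Hexim1 (ENSMUSG00000048878, chr11:103116231-103119725, plus strand), the inhibitor of the kinase, had 16.4, 15.4 and 14.9 CPM in KO oxybutynin, 23.5, 14.2 and 17.3 CPM in KO vehicle and 28.1, 25.4 and 28.5 CPM in floxed vehicle libraries. All knockout libraries lay below all floxed ones, and KO vehicle cells spanned the KO oxybutynin range. Hexim1 fell by 0.58 ± 0.14 on the log2 scale in KO vehicle over floxed vehicle (SE, edgeR adjusted p = 0.00147) and by 0.81 ± 0.14 in KO oxybutynin over floxed vehicle (edgeR adjusted p = 5.59e-05). The value for KO oxybutynin over KO vehicle was -0.23 ± 0.14 (edgeR adjusted p = 0.307). Leaving out a library moved it between -0.38 and -0.01.

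Larp7 (ENSMUSG00000027968, chr3:127536714-127553349, minus strand), the protein that guards the end of 7SK RNA, moved farthest of the members. It had 10.6, 9.28 and 10.0 CPM in KO oxybutynin, 14.1, 14.1 and 10.2 CPM in KO vehicle and 34.9, 33.7 and 36.1 CPM in floxed vehicle libraries. The gap between knockout and floxed libraries was wide, and KO vehicle replicate 3 lay among the KO oxybutynin libraries. Larp7 was 2.73-fold lower in KO vehicle than in floxed vehicle cells (log2 fold change -1.45 ± 0.12, SE, edgeR adjusted p = 1.38e-08) and 3.49-fold lower in KO oxybutynin than in floxed vehicle cells (log2 fold change -1.81 ± 0.12, edgeR adjusted p = 7.14e-10). The value for KO oxybutynin over KO vehicle was -0.36 ± 0.13 (edgeR adjusted p = 0.115).

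Mepce (ENSMUSG00000029726, chr5:137781906-137787655, minus strand), which caps and holds 7SK RNA, had 86.4, 76.7 and 73.7 CPM in KO oxybutynin, 61.9, 57.4 and 78.6 CPM in KO vehicle and 60.8, 65.4 and 65.3 CPM in floxed vehicle libraries. The KO vehicle libraries fell on both sides of the floxed ones, and KO vehicle replicate 3 lay within the KO oxybutynin range. The log2 fold change was 0.05 ± 0.11 in KO vehicle over floxed vehicle (SE, edgeR adjusted p = 0.711) and 0.26 ± 0.11 in KO oxybutynin over KO vehicle (edgeR adjusted p = 0.146). Mepce rose by 0.31 ± 0.11 in KO oxybutynin over floxed vehicle (edgeR adjusted p = 0.0158), a call that was lost without floxed vehicle replicate 1 (0.27, edgeR adjusted p = 0.0667) and without KO oxybutynin replicate 1 (0.24, edgeR adjusted p = 0.0823).

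Cdk9 (ENSMUSG00000009555, chr2:32705784-32713076, minus strand), the kinase itself, had 65.1, 61.7 and 57.2 CPM in KO oxybutynin, 56.8, 52.9 and 57.9 CPM in KO vehicle and 45.7, 47.1 and 46.3 CPM in floxed vehicle libraries. All knockout libraries lay above all floxed ones, and the knockout groups overlapped. Cdk9 rose by 0.27 ± 0.08 on the log2 scale in KO vehicle over floxed vehicle (SE, edgeR adjusted p = 0.00939) and by 0.40 ± 0.08 in KO oxybutynin over floxed vehicle (edgeR adjusted p = 0.000321). For KO oxybutynin over KO vehicle it was 0.13 ± 0.08 (edgeR adjusted p = 0.304).

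The cyclin partners of Cdk9 both fell in the knockout cells. Ccnt1 (ENSMUSG00000011960, chr15:98538689-98570923, minus strand) had 85.6, 80.9 and 85.7 CPM in KO oxybutynin, 98.8, 109 and 86.6 CPM in KO vehicle and 136, 143 and 136 CPM in floxed vehicle libraries. It was the member whose 3 groups did not overlap in any comparison, with KO oxybutynin lowest, although KO vehicle replicate 3 lay within 1 CPM of that group. Ccnt1 fell by 0.50 ± 0.09 in KO vehicle over floxed vehicle (SE, edgeR adjusted p = 7.93e-05) and by 0.72 ± 0.09 in KO oxybutynin over floxed vehicle (edgeR adjusted p = 9.13e-07), and its value in KO oxybutynin over KO vehicle was -0.22 ± 0.09 (edgeR adjusted p = 0.133). It overlaps the antisense gene 9330020H09Rik by 2260 bases. That gene had 744 counts over all libraries, and it is unknown whether counting used strand.

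Ccnt2 (ENSMUSG00000026349, chr1:127774164-127808061, plus strand) had 37.8, 41.1 and 36.9 CPM in KO oxybutynin, 40.3, 43.1 and 38.4 CPM in KO vehicle and 81.9, 82.6 and 79.4 CPM in floxed vehicle libraries. The knockout libraries formed 1 tight band well below the floxed ones. Ccnt2 fell by 1.00 ± 0.08 in KO vehicle over floxed vehicle (SE, edgeR adjusted p = 1.45e-08) and by 1.07 ± 0.08 in KO oxybutynin over floxed vehicle (edgeR adjusted p = 3.85e-09). For KO oxybutynin over KO vehicle it was -0.07 ± 0.08 (edgeR adjusted p = 0.612).

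**Figure D2:**
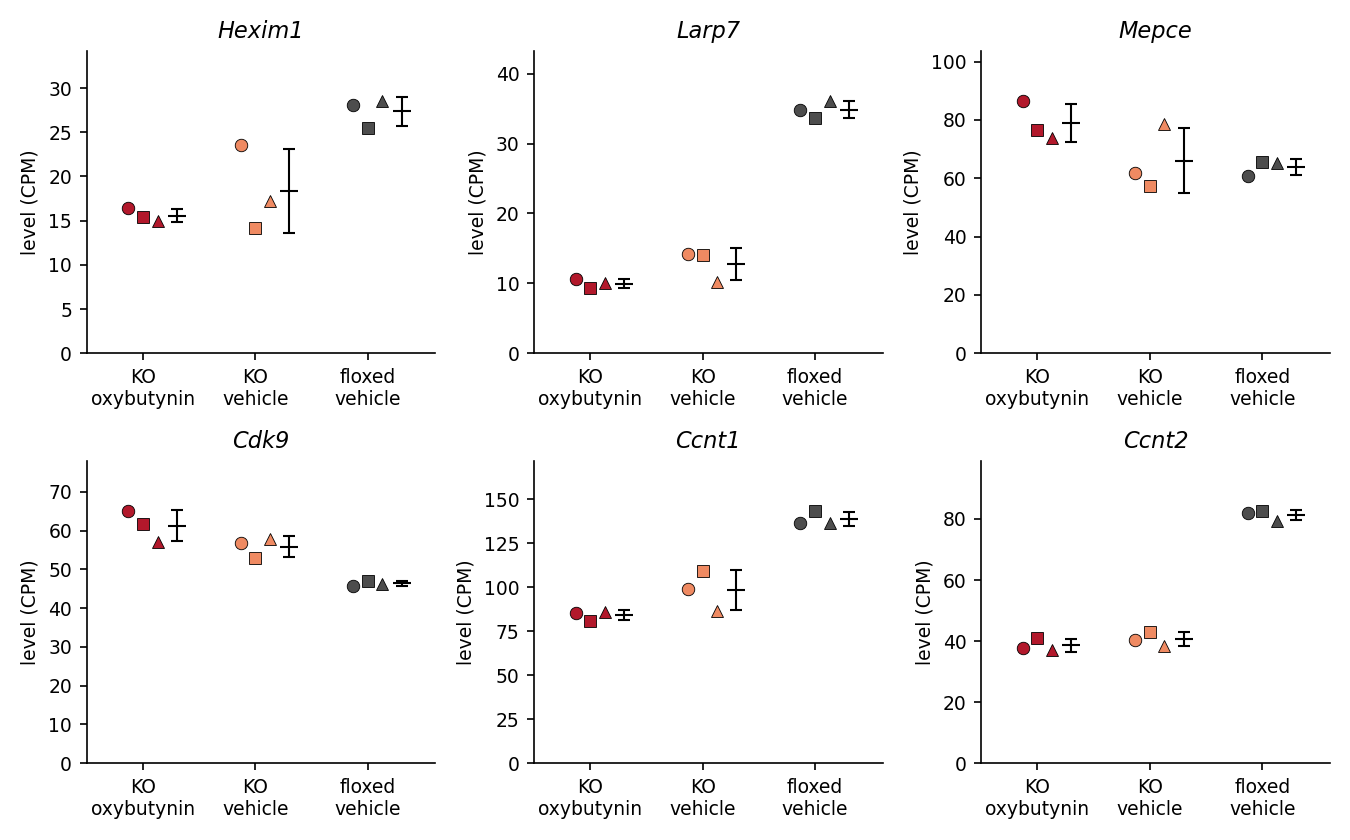
CPM (TMM-scaled) of the 6 protein-coding members in each library, with replicates 1 (circle), 2 (square) and 3 (triangle) and the mean ± SD of 3 libraries per group. Hexim1, Larp7, Ccnt1 and Ccnt2 are lower and Cdk9 is higher in every knockout library than in every floxed library, and Mepce overlaps between KO vehicle and floxed vehicle cells.

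The direction of the cyclins, Cdk9 and Mepce went with the base composition of their transcripts, so the fold changes were also computed after the trend of each library with GC content and length had been removed over protein-coding genes. GC content was 42.1% for Ccnt2, 44.8% for Ccnt1, 46.3% for Larp7, 49.2% for Hexim1, 50.5% for Cdk9 and 59.7% for Mepce. Rn7sk had 58.0%, near Mepce, but it is not protein-coding and so has no value in this setting. With the trend removed, KO vehicle over floxed vehicle had 3 called members, none higher and 3 lower. Larp7 (-1.43, edgeR adjusted p = 9.58e-10) and Hexim1 (-0.76, edgeR adjusted p = 3.63e-05) kept their direction and call. Ccnt2 (-0.15, edgeR adjusted p = 0.087), Ccnt1 (-0.08, edgeR adjusted p = 0.216) and Cdk9 (0.05, edgeR adjusted p = 0.516) were no longer called, and Mepce changed sign and was called lower (-0.46, edgeR adjusted p = 6.89e-06). In that setting 65.0% of the 12976 protein-coding genes tested were called. A trend with GC content can be technical or belong to the cells, and which it was here was not tested.

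In KO oxybutynin over floxed vehicle cells, all 6 tested members were called, 2 higher and 4 lower, where 71.9% of all tested genes were called, 35.1% higher and 36.9% lower. The groups did not overlap for 6 of 6 members, against 78.9% of all tested genes, and the members' median log2 fold change was -0.77 against 0.00 over all tested genes. With the GC and length trend removed 4 were called, 1 higher and 3 lower, where 67.9% of the 12976 protein-coding genes were called. Larp7 (-1.67) and Hexim1 (-0.96) were still lower, Cdk9 was still higher (0.17, edgeR adjusted p = 0.0274), Mepce was lower (-0.42, edgeR adjusted p = 1.74e-05), and Ccnt1 (-0.09, edgeR adjusted p = 0.136) and Ccnt2 (0.05, edgeR adjusted p = 0.55) were not called.

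**Figure D3:**
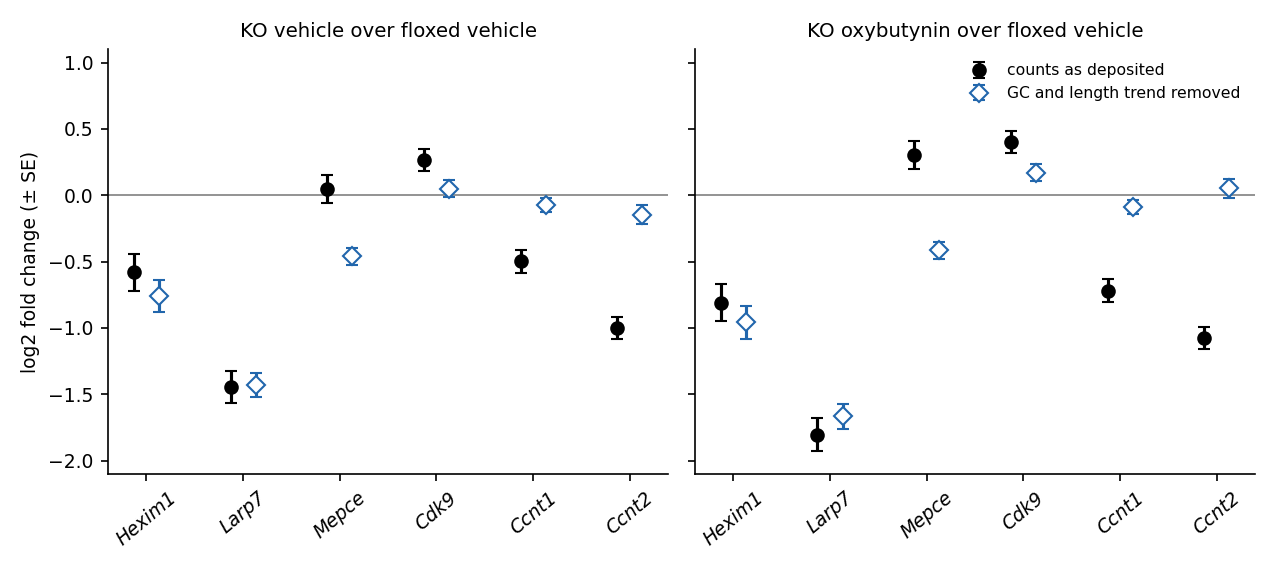
Log2 fold changes (± SE) of the 6 protein-coding members in KO vehicle over floxed vehicle (left) and KO oxybutynin over floxed vehicle (right), from the counts as deposited (filled circles) and after the GC and length trend was removed (open diamonds). Larp7 and Hexim1 keep their place, Ccnt1 and Ccnt2 move to near 0, and Mepce moves below 0.

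Oxybutynin itself was compared within knockout cells. In KO oxybutynin over KO vehicle, 0 of 6 members were called by edgeR, and 0 by DESeq2, where edgeR called 0.0127% of all tested genes, 0.00636% higher and 0.00636% lower. DESeq2 called 1156 of the 9676 genes to which it gave an adjusted p (11.9%). At an unadjusted p under 0.05 there were 3 members, Larp7, Mepce and Ccnt1, and 26.0% of all tested genes. The groups did not overlap for 1 of 6 members, Ccnt1, against 22.1% of all tested genes. The count rested on KO vehicle replicate 3: without it the same 3 members were called, with Larp7 at -0.50 (edgeR adjusted p = 0.00508), Mepce at 0.40 (edgeR adjusted p = 0.00629) and Ccnt1 at -0.31 (edgeR adjusted p = 0.00823), and 26.0% of the 16097 genes then tested were called.

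The balance between partners was read within each library, where scaling cancels. Counts of Hexim1 per count of Cdk9 were 0.254 ± 0.006 in KO oxybutynin, 0.327 ± 0.077 in KO vehicle and 0.590 ± 0.043 in floxed vehicle libraries (SD, n = 3 each), and no 2 groups overlapped. Counts of Larp7 per count of Mepce were 0.127 ± 0.008, 0.201 ± 0.063 and 0.547 ± 0.030 in the same order, with the knockout groups overlapping. Counts of Ccnt1 per count of Ccnt2 were 2.18 ± 0.19, 2.42 ± 0.15 and 1.71 ± 0.04 in the same order, again with overlapping knockout groups. The GC and length trend was not removed from these ratios. With it removed, log2 fold changes in KO vehicle over floxed vehicle were -0.08 for Ccnt1 and -0.15 for Ccnt2. In KO oxybutynin over floxed vehicle they were -0.09 and 0.05. In both comparisons Larp7 (-1.43 and -1.67) stayed below Mepce (-0.46 and -0.42), and Hexim1 (-0.76 and -0.96) below Cdk9 (0.05 and 0.17). A two-sided exact permutation test of 3 against 3 cannot go below p = 0.1. It gave 0.1 for the 3 ratios in both comparisons with floxed cells and for Hexim1 per Cdk9 between knockout groups (0.129 adjusted over 9 tests), 0.2 for Larp7 per Mepce and 0.3 for Ccnt1 per Ccnt2 between knockout groups. Counts of Rn7sk per count of Larp7, a description, were 4004, 3723 and 3354 in KO oxybutynin, 2399, 1552 and 3578 in KO vehicle and 554, 614 and 588 in floxed vehicle libraries. Each knockout library thus held more Rn7sk counts per Larp7 count than any floxed library, with KO vehicle replicate 2 the nearest to them.

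Levels were also taken per kilobase of all annotated exons of a gene, and the GC and length trend was not removed from them. On this scale, the order of the protein-coding members differed between groups. In floxed vehicle cells it ran Mepce (18.0 ± 0.7 CPM per kb), Ccnt1 (15.1 ± 0.4), Larp7 (14.7 ± 0.5), Cdk9 (10.1 ± 0.1), Hexim1 (7.83 ± 0.48) and Ccnt2 (6.59 ± 0.13), and the neighbours Ccnt1 and Larp7 lay within their spread (SD, n = 3). In KO oxybutynin cells it ran Mepce (22.2 ± 1.9), Cdk9 (13.3 ± 0.9), Ccnt1 (9.18 ± 0.30), Hexim1 (4.46 ± 0.21), Larp7 (4.22 ± 0.29) and Ccnt2 (3.13 ± 0.18), and in KO vehicle cells Mepce (18.6 ± 3.1), Cdk9 (12.1 ± 0.6), Ccnt1 (10.7 ± 1.2), Larp7 (5.41 ± 0.97), Hexim1 (5.24 ± 1.37) and Ccnt2 (3.29 ± 0.19). Larp7 stood beside Ccnt1 in floxed cells and beside Hexim1 in both knockout groups, where the pair lay within its spread. The sum of the cyclins T per Cdk9, per length, was 0.928 ± 0.061 in KO oxybutynin, 1.16 ± 0.17 in KO vehicle and 2.16 ± 0.03 in floxed vehicle cells, a ratio chosen after its values were seen and one that moves with the GC trend above. Rn7sk stood at 111500 ± 14998, 92774 ± 23414 and 61626 ± 2961 CPM per kb in KO oxybutynin, KO vehicle and floxed vehicle cells.

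Promoters of the members that kept a lower level with and without the GC trend are printed, Hexim1 and Larp7. RefSeq windows (GRCm38.p6, 250 bases before to 50 after the start site) were at hand for 5 members: Hexim1, Larp7, Cdk9, Ccnt1 and Ccnt2. TATAAA and TATATA were searched on both strands and are in capitals. They occur in 17.1% of 32851 windows, TATAAA in 13.6% and TATATA in 5.67%. Hexim1 (chr11:103116075-103116374, plus strand) held 2 overlapping TATATA, the first at position -125 from the RefSeq start and -31 from the start of the GENCODE gene, and the other 4 windows, Larp7 (chr3:127553300-127553599, minus strand) among them, held none of these letters. GC content was 61.0% in the Hexim1 window and 61.7% in the Larp7 window.
Hexim1 promoter: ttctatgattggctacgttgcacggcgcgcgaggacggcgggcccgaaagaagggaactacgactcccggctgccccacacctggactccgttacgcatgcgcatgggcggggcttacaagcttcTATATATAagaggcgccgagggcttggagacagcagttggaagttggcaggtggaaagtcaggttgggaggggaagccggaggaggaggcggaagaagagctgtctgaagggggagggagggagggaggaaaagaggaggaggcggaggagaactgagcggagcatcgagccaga
Larp7 promoter: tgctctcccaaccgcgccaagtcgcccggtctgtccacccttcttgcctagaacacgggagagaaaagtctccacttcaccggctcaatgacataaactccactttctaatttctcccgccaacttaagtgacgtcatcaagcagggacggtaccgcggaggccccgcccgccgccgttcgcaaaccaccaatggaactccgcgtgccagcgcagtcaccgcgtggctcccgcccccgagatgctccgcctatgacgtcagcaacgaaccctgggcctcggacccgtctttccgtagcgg

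Among 18 other proteins known to bind 7SK RNA or to release P-TEFb from it, calls in the knockout were mostly lower. In all, 12 were called in KO vehicle over floxed vehicle, 1 higher and 11 lower, with a median log2 fold change of -0.60. The lowest adjusted p-values belonged to Bclaf1 (-1.84 ± 0.09, SE, edgeR adjusted p = 2.89e-11), Ncl, nucleolin (-1.79 ± 0.09, edgeR adjusted p = 5.77e-11), Hnrnpa2b1, an RNA-binding protein that takes up free 7SK RNA (-1.49 ± 0.09, edgeR adjusted p = 5.46e-10), and Syncrip (-1.55 ± 0.11, edgeR adjusted p = 2.27e-09). With the GC and length trend removed 14 were called, 1 higher and 13 lower, with these genes at -0.59, -1.11, -1.03 and -0.27 in the same order. The count in KO oxybutynin over floxed vehicle was 14 of 18, 3 higher and 11 lower. The share called was near the background of 63.3% for KO vehicle and 71.9% for KO oxybutynin. The 11 lower genes stand beside 33.4% of all tested genes lower in KO vehicle and 36.9% lower in KO oxybutynin, each over floxed vehicle, and the list was not tested as a set.

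Genes of the super elongation complex, in which P-TEFb works with AFF scaffolds and ELL factors, were mixed. Of 11 tested, 6 were called in KO vehicle over floxed vehicle, 2 higher and 4 lower (median 0.01). Mllt3 (-1.55 ± 0.09, SE, edgeR adjusted p = 3.2e-10), Ell2 (-0.80 ± 0.09, edgeR adjusted p = 4.55e-07) and the scaffold Aff4 (-0.57 ± 0.09, edgeR adjusted p = 3.16e-05) were lower, and Aff3 was higher (0.85 ± 0.17, edgeR adjusted p = 0.000243). With the trend removed 8 were called, 3 higher and 5 lower, with Mllt3 at -0.62, Aff3 at 0.62, Aff4 at 0.02 and Ell2 turned to 0.22. Eaf2 (-0.73), Ell (0.10), Mllt1 (0.07), Mllt6 (0.07) and Eaf1 (0.01) were not called. Removing the trend made Ell (-0.40, edgeR adjusted p = 0.000123), Mllt1 (-0.42, edgeR adjusted p = 3.5e-06) and Mllt6 (-0.27, edgeR adjusted p = 0.00219) lower, and left Eaf2 (0.24) and Eaf1 (-0.07) uncalled. The 6 of 11 called are near the background of 63.3%.

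The pausing and elongation factors on which P-TEFb acts, with the PAF and FACT complexes, had 10 of 16 called in KO vehicle over floxed vehicle, 4 higher and 6 lower (median -0.08). The split became 1 higher and 10 lower with the trend removed. The FACT subunit Supt16 (-1.60 ± 0.08, SE, edgeR adjusted p = 5.77e-11) and the PAF subunits Cdc73 (-1.42 ± 0.11, edgeR adjusted p = 5.32e-09), Rtf1 (-0.94 ± 0.09, edgeR adjusted p = 1.24e-07) and Leo1 (-0.71 ± 0.11, edgeR adjusted p = 3.06e-05) were lower. Supt16 (-1.42), Rtf1 (-0.89) and Leo1 (-0.92) kept a similar size in that setting, and Cdc73 was at -0.00. The 10 of 16 called are near the 63.3% called over all tested genes.

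The other kinases of RNA polymerase II and their cyclins, those of TFIIH, Mediator and the CDK11 to CDK13 family, had 9 of 12 called in KO vehicle over floxed vehicle, none higher and 9 lower (median -0.47). The split became 3 higher and 7 lower with the trend removed. Ccnc, cyclin C of Mediator (-1.40 ± 0.13, SE, edgeR adjusted p = 5.78e-08), Cdk12 (-0.91 ± 0.09, edgeR adjusted p = 1.04e-07), Ccnl1 (-1.01 ± 0.10, edgeR adjusted p = 1.53e-07) and Cdk8 (-0.82 ± 0.09, edgeR adjusted p = 9.02e-07) led the list. Removing the trend put them at -0.43, -0.74, -0.24 and -0.11 in the same order. Ccnl2 (-0.23), Ccnk (0.11) and Ccnh (0.07) were not called, and with the trend removed Ccnh was higher (0.96, edgeR adjusted p = 8.4e-09), Ccnk was lower (-0.31, edgeR adjusted p = 0.000544) and Ccnl2 was not called (-0.15, edgeR adjusted p = 0.124). Over all tested genes 63.3% were called and 33.4% were lower.

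Rn7sk is made by RNA polymerase III from a promoter outside the gene body, with SNAPc and OCT1 (Pou2f1) bound upstream. The subunits of the polymerase had 9 of 13 called in KO vehicle over floxed vehicle, 5 higher and 4 lower (median 0.05), and 1 higher and 5 lower with the trend removed. The subunits Polr3gl (0.93 ± 0.12, SE, edgeR adjusted p = 3.16e-06) and Polr3g (-0.94 ± 0.16, edgeR adjusted p = 6.91e-05) are alternative forms of 1 position in the enzyme, and they went opposite ways, also with the trend removed (0.49 and -0.62). Polr3f (-0.85 ± 0.11, edgeR adjusted p = 4.12e-06) and Polr3k (-0.82 ± 0.11, edgeR adjusted p = 6.43e-06) were lower, and at -0.13 and -0.15 with the trend removed. Polr3e (0.19), Crcp (-0.15), Polr1d (-0.07) and Polr3d (0.05) were not called. Once the trend was removed, Crcp (-0.50, edgeR adjusted p = 0.000157), Polr1d (-0.42, edgeR adjusted p = 0.000464) and Polr3d (-0.42, edgeR adjusted p = 5.94e-05) were lower and Polr3e (0.03) was not called. The share of subunits called was near the background of 63.3%.

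Other polymerase III factors, not only those of promoters like that of Rn7sk, had 15 of 20 called in KO vehicle over floxed vehicle. Of these, 6 were higher and 9 lower (median -0.26), and 3 were higher and 9 lower with the trend removed. The lowest p-values belonged to Ssb, the La protein that holds the ends of new polymerase III transcripts (-1.86 ± 0.10, SE, edgeR adjusted p = 1.3e-10), Pou2f1 (-1.51 ± 0.10, edgeR adjusted p = 6.19e-10), Bdp1, a subunit of TFIIIB (-1.87 ± 0.12, edgeR adjusted p = 7.81e-10), and Snapc3 of SNAPc (-1.43 ± 0.12, edgeR adjusted p = 1.25e-08). All 4 were lower with the trend removed, at -0.97, -0.75, -1.21 and -0.47 in the same order. Tbp (-0.23), Snapc5 (-0.38), Snapc1 (-0.24), Gtf3c5 (0.16) and Gtf3c4 (-0.03) were not called. Of these, Tbp (0.58, edgeR adjusted p = 3.21e-05) and Snapc1 (0.45, edgeR adjusted p = 0.00136) were called higher and Gtf3c5 lower (-0.22, edgeR adjusted p = 0.0319) once the trend was removed, and Snapc5 (-0.17) and Gtf3c4 (0.02) stayed uncalled. The 15 called stand against a background of 63.3%, with 29.9% of all tested genes higher and 33.4% lower. The count in KO oxybutynin over floxed vehicle was 17 of 20, 7 higher and 10 lower, against 71.9% of all tested genes, and 10 with the trend removed, 3 higher and 7 lower.

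The protein subunits of RNase P and RNase MRP had 5 of 11 called in KO vehicle over floxed vehicle, 3 higher and 2 lower (median 0.12), and 2 higher and 4 lower with the trend removed. Rpp30 (-0.54 ± 0.12, SE, edgeR adjusted p = 0.000597) and Pop1 (-0.33 ± 0.08, edgeR adjusted p = 0.002) were lower, and Rpp25 (1.52 ± 0.47, edgeR adjusted p = 0.00909) and Pop4 (0.25 ± 0.08, edgeR adjusted p = 0.0118) were higher. Removing the trend left Pop1 lower (-0.61, edgeR adjusted p = 4.19e-07), while Rpp25 (0.95, edgeR adjusted p = 0.0954), Rpp30 (-0.19, edgeR adjusted p = 0.0987) and Pop4 (0.03, edgeR adjusted p = 0.739) were no longer called. Without floxed vehicle replicate 1 the count was 3. The share called lay below the 63.3% over all tested genes.

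**Figure D4:**
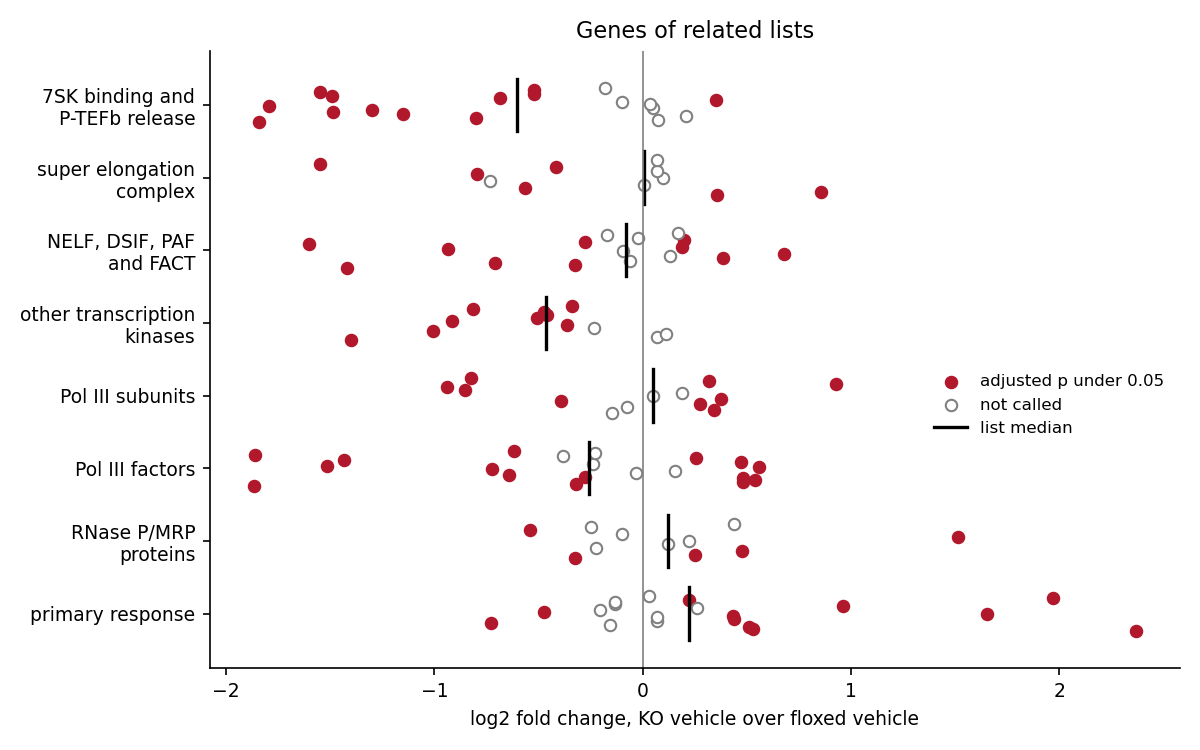
Log2 fold changes in KO vehicle over floxed vehicle for the tested genes of 8 related lists, with called genes filled, other genes open and a bar at each list's median. The list medians run from -0.60 for 7SK binding and P-TEFb release to 0.22 for the primary response.

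Other RNAs of polymerase III and short RNAs of polymerase II show how Rn7sk compares with transcripts of like kind. Of 4 tested polymerase III RNAs, Bc1 was called in KO vehicle over floxed vehicle (1.63 ± 0.60, SE, edgeR adjusted p = 0.0259), from 23, 19 and 18 counts in KO oxybutynin, 5, 9 and 17 in KO vehicle and 6, 2 and 1 in floxed vehicle libraries. Vaultrc5, the vault RNA (0.61), Rny3 (-0.39) and Rny1 (0.28), the last 2 being Y RNAs, were not called. The count was 0 without floxed vehicle replicate 2 or without floxed vehicle replicate 3, and 3 without KO vehicle replicate 2. Without KO vehicle replicate 3 it was 1, called lower, so the call of Bc1 was lost. In those settings 55.9% to 68.2% of all tested genes were called. In KO oxybutynin over floxed vehicle 3 of 4 were called, all higher: Bc1 (2.54), Vaultrc5 (1.77 ± 0.27, edgeR adjusted p = 1.91e-05) and Rny1 (1.25 ± 0.29, edgeR adjusted p = 0.00104). The 1 and 3 called stand beside 63.3% and 71.9% of all tested genes, with 29.9% and 35.1% higher.

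Rny1 had 54.6, 45.4 and 36.7 CPM in KO oxybutynin, 23.9, 10.4 and 35.1 CPM in KO vehicle and 24.96, 19.9 and 12.6 CPM in floxed vehicle libraries. Its KO vehicle libraries lay on both sides of the floxed ones, with replicate 2 lowest of all 9, and the KO oxybutynin libraries were highest. Of 12 short polymerase II RNAs, 4 were called in KO vehicle over floxed vehicle, 3 higher and 1 lower (median -0.04), below the 63.3% called over all tested genes. Scarna6, a guide RNA of Cajal bodies (0.85 ± 0.14, SE, edgeR adjusted p = 3.84e-05), Terc, the RNA of telomerase (0.78 ± 0.22, edgeR adjusted p = 0.00483), and Scarna13 (0.95 ± 0.31, edgeR adjusted p = 0.0134) were higher, and Rnu12, the U12 snRNA of the minor spliceosome, was lower (-0.46 ± 0.19, edgeR adjusted p = 0.0408). No RNA of the list was called lower without floxed vehicle replicate 1, floxed vehicle replicate 3, KO vehicle replicate 2 or KO oxybutynin replicate 3, the last through the spread shared by all groups. The count in KO oxybutynin over floxed vehicle was 6 of 12, all higher, against 71.9% of all tested genes called and 35.1% higher.

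**Figure D5:**
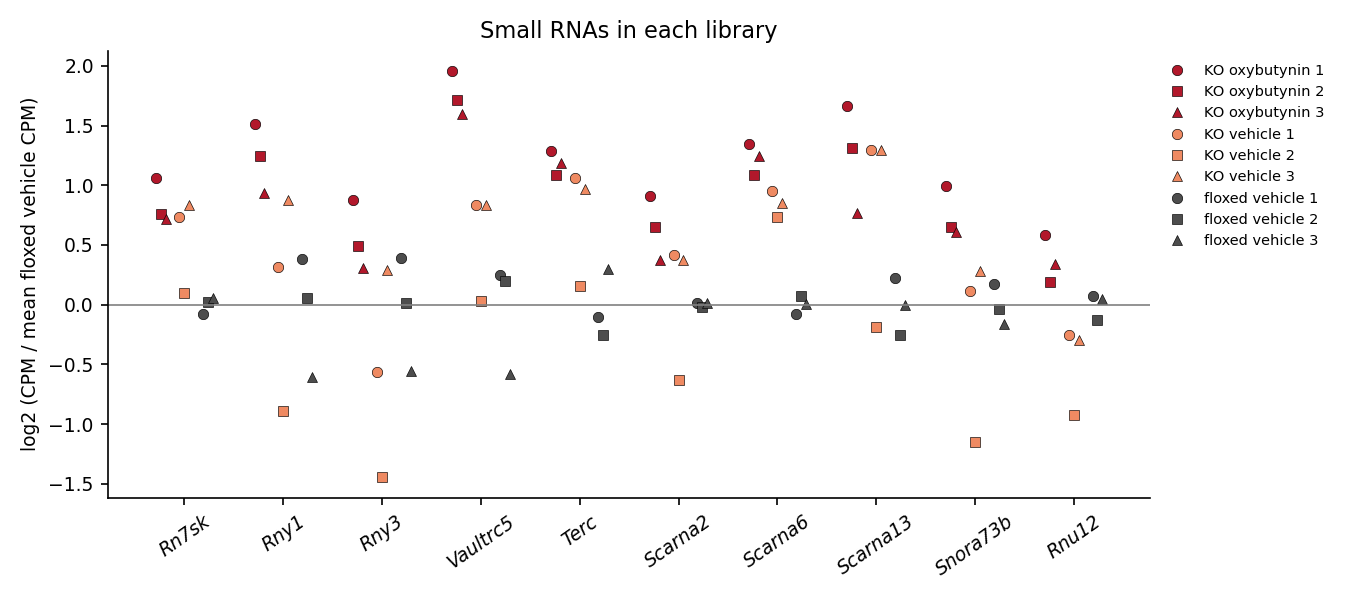
Log2 ratio of CPM (TMM-scaled) in each library to the mean of the 3 floxed vehicle libraries, for Rn7sk and 9 other small RNAs, with replicates 1 (circle), 2 (square) and 3 (triangle). KO vehicle replicate 2 lies lowest of the KO vehicle libraries for each of the 10 RNAs shown, as for Rny1 at 10.4 CPM and Snora73b at 31.8 CPM. Other tested short RNAs are not shown, among them Bc1, lowest in KO vehicle replicate 1 at 5 counts, and Rnu73b, highest in KO vehicle replicate 2 at 36 counts.

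Primary response genes, many of which depend on release of paused polymerase, had 11 of 19 called in KO vehicle over floxed vehicle, 9 higher and 2 lower (median 0.22). Nr4a1 (1.97 ± 0.11, SE, edgeR adjusted p = 1.77e-10), Atf3 (2.37 ± 0.16, edgeR adjusted p = 1.04e-09), Ier3 (1.65 ± 0.12, edgeR adjusted p = 2.89e-09) and Klf4 (0.96 ± 0.12, edgeR adjusted p = 2.3e-06) led the list. With the trend removed the balance turned, to 6 higher and 10 lower (median -0.22), while these 4 stayed higher at 1.48, 1.95, 1.15 and 0.49 in the same order. In KO oxybutynin over floxed vehicle 16 of 19 were called, 12 higher and 4 lower, and 6 higher and 9 lower with the trend removed. The 11 and 16 called stand beside 63.3% and 71.9% of all tested genes, with 29.9% and 35.1% higher.

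In KO oxybutynin over KO vehicle, edgeR called 0 genes in each of these 10 lists. Without KO vehicle replicate 3 it called 10 of 18 genes that bind 7SK RNA or release P-TEFb, 2 higher and 8 lower, 6 of 12 other kinases, all lower, 5 of 12 short polymerase II RNAs, all higher, and 3 of 4 other polymerase III RNAs, all higher. Among the rest it called 5 of 11 super elongation complex genes (1 higher and 4 lower), 9 of 16 pausing and elongation factors (3 higher and 6 lower), 4 of 13 polymerase III subunits (2 in each direction), 6 of 20 polymerase III factors (2 higher and 4 lower), 7 of 20 primary response genes (5 higher and 2 lower) and 0 of 11 RNase P and MRP proteins. These counts stand against 26.0% of the 16097 genes tested in that setting. With the full set, the median log2 fold change was 0.98 for the other polymerase III RNAs and 0.41 for the short polymerase II RNAs, against -0.00 over all tested genes. The medians were 0.72 and 0.22 without KO vehicle replicate 2, and 1.42 and 0.62 without KO vehicle replicate 3.

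The genes whose log2 CPM ran most like Rn7sk over the 9 libraries, out of 8801 with at least 10 CPM, were Akr1a1 (Pearson r = 0.994), Poldip2 (0.994), Eef1g (0.993), Pgam1 (0.993), Rpl3 (0.992) and Gpx1 (0.991). These are descriptions over 9 libraries in 3 groups that share scaling, depth and composition. Akr1a1 averaged 284.8 ± 34.7 CPM in KO oxybutynin, 246.4 ± 40.6 CPM in KO vehicle and 179.9 ± 4.7 CPM in floxed vehicle cells (SD, n = 3 each), with its 9 libraries in the same rank order as those of Rn7sk.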

How the data were processed

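RNA sequencing of 9 libraries in 3 groups was used. Per the labels' protocols, strand-specific libraries were prepared from 2 µg of Trizol-extracted total RNA. The authors deposited raw counts of reads for each gene. The notes name the builds GRCm38 and mm10 and the tools STAR 2.7.0e, DESeq2 1.26.0, FastQC, cutadapt and Trim Galore 0.6.0, per the submitters' processing notes and with no roles given. How reads were counted, with or without strand and with several matches, was not given in the sources used here, and this bears most on Rn7sk, Rmrp and Rpph1. Each of the 9 columns was matched to a sample by its label, and 0 were left over.

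The deposited counts went into edgeR 4.0.16 (R 4.3.3): filterByExpr on the 3 groups (15720 genes), TMM scaling, and the quasi-likelihood test with 1 mean per group over all 9 libraries and 6 residual degrees of freedom. The test was checked on simulated data in which few genes changed and no trend with GC content was put in. That check does not cover data with as many calls as these. Genes were called at a Benjamini-Hochberg adjusted p under 0.05, taken over all tested genes. Alternatives were RLE and other scalings, filters, a threshold of 0.01, DESeq2 1.42.0, leaving out each library, the 2 groups compared alone, and offsets that remove smooth trends with GC content and length (mgcv 1.9.3; protein-coding genes). Leaving out libraries for the list counts was added after seeing the data. Ratios within libraries used exact permutation tests (scipy 1.17.1); a planned ratio of Rmrp to Rpph1 could not be computed, so 9 tests were made. Gene models were GENCODE M21 (GRCm38), and copies were sought with BLAST 2.17.0.

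The members and the gene lists were chosen with earlier results of these data known. Named genes are the members, from each list up to 4 called genes with the lowest adjusted p in KO vehicle over floxed vehicle and up to 3 in KO oxybutynin over KO vehicle, the uncalled genes where there were 5 or fewer, and the 6 genes most like Rn7sk. Gm24447, Gm23037, Gm26917, the markers and other list genes given in comparisons were named after their values were seen.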

Additional observations from a re-analysis of the deposited data

How the results depend on the processing

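Of 324 member fold changes under an alternative, 311 kept their side of the threshold, 7 lost a call and 3 gained a call. The remaining 3 changed sign and were called in the main fit, the alternative or both. All 3 arose with the GC and length trend removed. They were Mepce in KO vehicle over floxed vehicle (-0.46), and Mepce (-0.42) and Ccnt2 (0.051) in KO oxybutynin over floxed vehicle. Among the 311, some uncalled values changed sign too. Mepce in KO vehicle over floxed vehicle, 0.05 in the main fit, was at -0.09 at its lowest with a library left out. Ccnt2 in KO oxybutynin over KO vehicle went from -0.07 to 0.20 with the GC and length trend removed. The same setting left 3 members called in KO vehicle over floxed vehicle, and 10 polymerase III factors in KO oxybutynin over floxed vehicle. The cause was not tested. Leaving out each library gave 0 to 3 members called in KO oxybutynin over KO vehicle, beside 0% to 26.0% of all tested genes. In that comparison it gave 0 to 10 called genes for 7SK binding and P-TEFb release, 0 to 5 for the super elongation complex, 0 to 9 for pausing and elongation factors, 0 to 6 for other kinases, 0 to 4 for polymerase III subunits, 0 to 6 for polymerase III factors, 0 to 3 for other polymerase III RNAs, 0 to 5 for short polymerase II RNAs and 0 to 7 for the primary response. The highest count of each of these lists came without KO vehicle replicate 3, where the share over all tested genes was 26.0%. The only other call in them was 1 short polymerase II RNA, without KO vehicle replicate 2. In KO vehicle over floxed vehicle, leaving out each library gave 3 to 7 for RNase P and MRP proteins and 0 to 3 for other polymerase III RNAs. All tested genes were called there at 55.9% to 68.2%. DESeq2 called 1156 of 9676 genes with an adjusted p in KO oxybutynin over KO vehicle, where edgeR called 2 of 15720. The log2 difference of Rn7sk stayed positive under its 48 alternatives. All 63 ratio differences kept their direction when 0.5 was added to each count or a library was left out. Removal of the GC and length trend was not applied to the ratios. GC removal was run for protein-coding genes only, so it gives no value for Rn7sk or the other short RNAs. No paired analysis was possible because the labels give the groups no shared replicate numbers.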
